A study of Mus musculus with 6 samples.

Results

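Isolated peaks are stretches of DNA that were called in the peak list of a single replicate, with no peak of the other list overlapping them or lying within 1 kb. They were selected on the measured peak positions of both lists, on chromosomes 1 to 19, in the 2 deposited peak lists, called list 1 and list 2 here after the replicate that each is named for. The rule found 81959 isolated peaks among the 336844 peaks of both lists: 29998 in list 1 and 51961 in list 2. They made up 20.5% of the 146628 peaks of list 1 on these chromosomes and 30.6% of the 169602 peaks of list 2. A further 17121 and 19847 peaks lay within 1 kb of the other list without touching it, and 99509 and 97794 peaks shared at least 1 bp with it. The last set, called overlapping peaks, is the one that isolated peaks are set against.

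The study looked for the DNA that LncMyoD, a long non-coding RNA, occupies in C57BL/6 mouse muscle cells by ChIRP, in which biotin-labelled DNA probes pull down an RNA with the chromatin attached to it. Primary myoblasts were held for 2 days in 2% horse serum, which turns them into myotubes, and the labels give no other treatment or genotype. The 6 samples are pull-downs with odd probes, pull-downs with even probes, and input DNA, with 2 replicates of each. A list's name is common to all 3 samples of its replicate, so a list cannot be assigned to a pool, and list and replicate are the only groups compared here. Nothing in the labels ties the replicates to separate cultures, and the difference between the lists may be technical. The files hold DNA peaks and no transcript levels, so the myotube label could not be checked against marker genes.

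LncMyoD is a non-coding RNA transcribed near Myod1, the gene of the transcription factor that commits cells to muscle. It is switched on as myoblasts leave the cell cycle and fuse. In ChIRP, the odd and even pools hold different probes for a common target, which helps to tell DNA caught by a probe's own match from DNA caught through the RNA.

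Of the isolated peaks whose summit fell in a promoter, 6 are shown. They had their summit, the position of highest coverage, in a promoter window of the RefSeq table for GRCm38.p6 and ranked highest there by q. The table has 31396 windows on chromosomes 1 to 19, each reaching from 250 bases before a gene start to 50 bases after it. The 250 bases before the start are printed for the 3 such peaks of each list, on the strand of the gene, because they are the DNA under these peaks that can be read here. Capitals mark every match to CANNTG, the E-box letters that MyoD and related bHLH factors bind. The motif reads the same on both strands. In list 1 they were:
Fan1, chr7:64374057-64374306, minus strand: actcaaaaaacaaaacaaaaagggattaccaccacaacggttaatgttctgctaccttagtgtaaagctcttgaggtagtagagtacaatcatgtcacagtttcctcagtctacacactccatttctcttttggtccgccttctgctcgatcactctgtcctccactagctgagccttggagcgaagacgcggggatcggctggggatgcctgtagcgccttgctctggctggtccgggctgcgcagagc
Olfr901, chr9:38430034-38430283, plus strand: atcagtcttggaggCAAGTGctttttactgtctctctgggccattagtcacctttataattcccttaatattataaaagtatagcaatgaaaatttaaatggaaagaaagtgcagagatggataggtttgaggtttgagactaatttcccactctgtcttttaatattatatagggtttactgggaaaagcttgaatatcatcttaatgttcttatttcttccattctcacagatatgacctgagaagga
Ece1, chr4:137920543-137920792, plus strand: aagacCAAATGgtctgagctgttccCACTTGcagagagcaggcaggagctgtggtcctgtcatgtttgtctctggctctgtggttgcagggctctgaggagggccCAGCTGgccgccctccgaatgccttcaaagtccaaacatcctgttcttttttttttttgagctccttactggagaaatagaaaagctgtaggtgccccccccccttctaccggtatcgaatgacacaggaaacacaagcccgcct

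In list 2 the corresponding windows were:
Gm33595, chr17:36947083-36947332, minus strand: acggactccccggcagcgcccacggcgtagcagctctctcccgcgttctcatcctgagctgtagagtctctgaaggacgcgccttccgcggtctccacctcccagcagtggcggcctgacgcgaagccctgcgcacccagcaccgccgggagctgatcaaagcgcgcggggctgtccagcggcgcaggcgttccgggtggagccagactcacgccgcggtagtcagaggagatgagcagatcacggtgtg
Ube2d-ps, chr11:5761900-5762149, plus strand: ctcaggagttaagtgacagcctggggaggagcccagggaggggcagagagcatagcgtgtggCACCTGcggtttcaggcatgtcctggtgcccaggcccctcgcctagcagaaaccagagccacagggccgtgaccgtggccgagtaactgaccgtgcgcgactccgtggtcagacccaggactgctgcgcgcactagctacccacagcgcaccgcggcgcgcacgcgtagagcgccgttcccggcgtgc
Gm42288, chr4:50827002-50827251, minus strand: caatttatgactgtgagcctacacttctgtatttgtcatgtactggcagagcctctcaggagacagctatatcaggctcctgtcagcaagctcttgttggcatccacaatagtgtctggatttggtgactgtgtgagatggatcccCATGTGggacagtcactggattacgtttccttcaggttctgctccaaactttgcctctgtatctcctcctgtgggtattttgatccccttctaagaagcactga

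The choice of printed windows left out chromosome 18. The window of Fan1, the gene of a DNA repair nuclease, held a summit of list 1 with 111 overlapping fragments (41.1-fold), 93 bases before the start, and the nearest peak of list 2 was 3210 bp from the peak. Its sequence has no E-box. The peak at the odorant receptor gene Olfr901 reached 52 fragments (19.5-fold) and had no peak of list 2 within 13245 bp. Ece1, which encodes the endothelin-converting enzyme, had 51 fragments (19.1-fold), and its window holds 3 E-boxes, among them the CAGCTG form. Of the 3 windows in list 2, all belong to non-coding RNA genes: Gm33595 with 158 fragments (49.1-fold), Ube2d-ps with 122 (38.0-fold) and Gm42288 with 109 (34.0-fold). Their nearest peaks of list 1 lay 6131, 1660 and 15016 bp away. Of all windows with an isolated summit, 71.0% in list 1 and 71.1% in list 2 belong to protein-coding genes. Gm33595 and Ube2d-ps have GC-rich windows (68.4% and 67.6%, with 28 and 23 CpG), against 34.0% and no CpG at Olfr901.

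Few promoters held a summit of either kind. Of all windows, 176 (0.561%) held an isolated summit of list 1 and 349 (1.11%) one of list 2, and 850 (2.71%) and 811 (2.58%) an overlapping summit, of which there were more in all. Per peak, 2.97% of isolated and 3.90% of overlapping peaks of list 1 lay within 1 kb of a listed gene start, and 3.47% and 3.81% of those of list 2. The median GC content was 56.0% and 58.0% in windows with an isolated summit, 58.8% and 59.0% with an overlapping summit, and 52.7% in the 29401 windows with no summit of either list. E-box letters CANNTG occurred in 73.9% and 69.9% of windows with an isolated summit, and in 72.2% of all windows of this length. With an overlapping summit the shares were 69.9% and 69.4%. CAGCTG occurred in 16.5% and 19.2% of windows with an isolated summit, 17.3% and 16.3% with an overlapping summit, and 16.3% of all. A loose form of the MEF2 motif is CTA and TAG with any 4 bases between them, also the same on both strands. It occurred in 2.27% and 2.87% of windows with an isolated summit, 2.47% and 2.22% with an overlapping summit, and 3.73% of all. None of these shares was tested, and a match is a description of letters, not a bound site.

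Isolated peaks were weaker than overlapping peaks in both lists. The median fold, the authors' enrichment at the summit over the background that the caller estimated, was 5.51 for isolated and 10.3 for overlapping peaks of list 1. In list 2 the medians were 5.87 and 11.4. The isolated peaks thus stood at 0.536 and 0.514 times the overlapping ones, and the ratio differed little between the lists. The ranges still met: the highest isolated folds were 82.0 and 72.9, and 25% of overlapping peaks lay at or below 6.24 and 6.79. On each of the 19 chromosomes the isolated median was the lower one, in list 1 and in list 2. Peaks within 1 kb of the other list that did not touch it, called near peaks, had median folds of 5.88 and 5.87. Low fold was thus not particular to isolated peaks. Whether a peak is isolated depends on what was called in the other list, so strength is not free of the rule, and these values describe the set with no test.

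The fold and p deposited for a peak together fix the number of fragments that overlap its summit. If the caller added 1 to both pileups, a whole number of fragments and a background gave back the deposited fold and −log10 p of every peak within 0.01. Isolated summits held a median of 15 fragments in list 1 (quartiles 12 and 21) and 19 in list 2 (15 and 28). Overlapping summits held 29 (17 and 57) and 38 (22 and 73). The smallest pileup called over the lowest background was 7 in list 1 and 8 in list 2, with that background at 1.72 and 2.24 fragments. The isolated medians lay above these smallest pileups. Their median −log10 q of 7.50 and 9.62 fell in part 3 of list 1 and part 4 of list 2, of 10 parts from weakest to strongest. Counting error is larger relative to the value at few fragments than at many, and its part in isolation was not tested. Overlapping peaks of list 1 with the isolated median of 15 fragments were set beside the strongest peak of list 2 that each overlapped. These partners had a median of 23 fragments (3431 peaks, quartiles 17 and 35). For overlapping peaks of list 2 with 19 fragments, the strongest partners had a median of 18 (2182 peaks, quartiles 14 and 25). A partner had to be called, so weaker ones are missing from these values, and list 2 summits held more fragments in general.

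**Figure D1:**
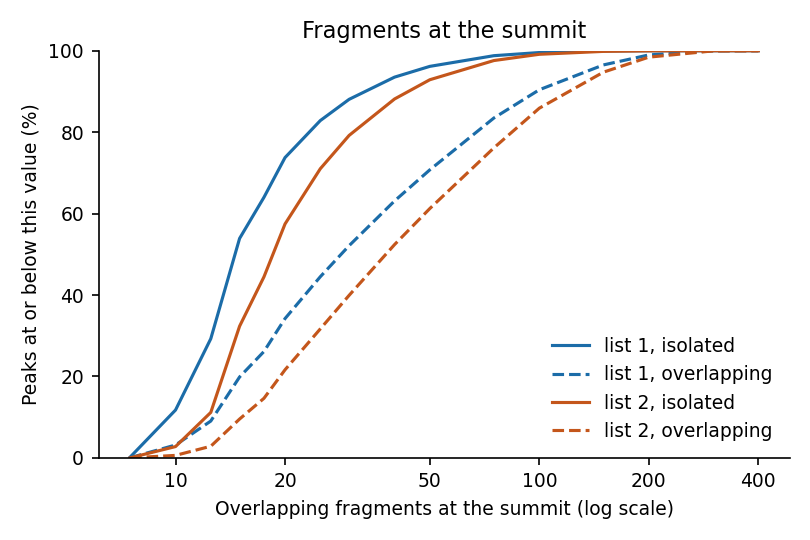
Cumulative share of peaks (y axis, percent) by the number of overlapping fragments at the summit (x axis, log scale), for isolated peaks (solid lines) and overlapping peaks (dashed lines) of list 1 (blue) and list 2 (orange). Within each list the isolated curve rises first, with medians of 15 and 19 fragments against 29 and 38.

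The background at the summit stood at its lowest value under 68.5% of isolated and 64.4% of overlapping peaks of list 1, and under 75.5% and 70.7% in list 2. Fewer isolated than overlapping peaks lay over raised background, which the caller sets from regional coverage.

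The share of isolated peaks fell with strength in both lists. When each list was split into 10 parts by −log10 q, 39.8% of the weakest part of list 1 and 51.0% of that of list 2 were isolated. In the strongest part the shares were 1.86% (272 peaks) and 3.45% (586 peaks). At folds of at least 20, 919 of 27017 peaks of list 1 were isolated (3.40%, 95% exact binomial interval 3.19 to 3.62%) and 1882 of 31079 of list 2 (6.06%, 5.79 to 6.33%). At folds of at least 60 there remained 9 peaks (0.422%, 0.193 to 0.799%) and 13 peaks (0.871%, 0.465 to 1.49%). The intervals cover counting error only. List 2 had the higher share in each of the 10 parts, and at 101 fragments or more it had 452 isolated peaks of 14732 (3.07%) against 132 of 9876 (1.34%) in list 1.

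**Figure D2:**
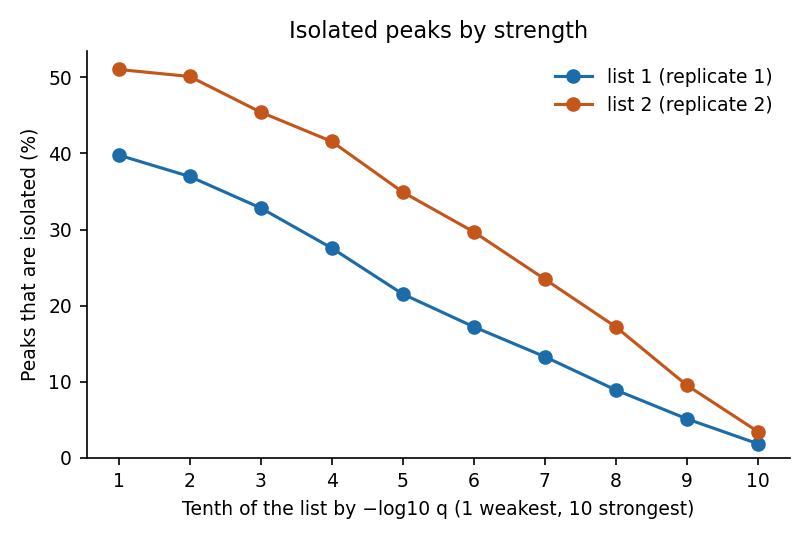
Share of peaks that are isolated (y axis, percent) in each of 10 parts of a list ordered by −log10 q (x axis, 1 weakest and 10 strongest), for list 1 (blue) and list 2 (orange). The shares fall from 39.8% and 51.0% to 1.86% and 3.45%, and list 2 lies above list 1 throughout.

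Isolated peaks were narrow. Their median width was 278 bp in list 1 and 299 bp in list 2, against 475 and 555 bp for overlapping peaks, and the shortest width in either list was 200 bp. Because of this they held 12.2% of the peak bases of list 1 (9.73 Mb) and 19.4% of those of list 2 (18.4 Mb), less than their share of peaks. The widths also differed at equal strength. Within each of the 10 parts by −log10 q the isolated median was the smaller, at 0.622 to 0.901 times the overlapping one in list 1 and 0.656 to 0.940 times in list 2. The ratio was nearest to 1 among weak peaks. In the strongest part the medians were 740 against 1141 bp in list 1 and 809 against 1233 bp in list 2. Near peaks had median widths of 289 and 304 bp over the whole lists, and of 544 and 586 bp in the strongest part. Narrowness was thus not particular to isolated peaks. A wide peak has more bases that can meet a peak of the other list, so width is not free of the rule.

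The summit sat nearer to the middle in isolated peaks taken as a whole. It fell in the central 20% of the width in 53.4% of isolated peaks of list 1 and 54.2% of list 2, against 47.4% and 46.2% of overlapping peaks, and the isolated share was the higher in each of the 10 parts by strength. Among peaks of at least 500 bp the order was the reverse. There the summit was central in 17.8% of 3115 isolated peaks of list 1 and 17.9% of 7856 of list 2, against 27.0% and 29.0% of overlapping peaks. Near peaks were similar to isolated ones, with a central summit in 56.3% and 56.0% of all, and in 19.9% and 20.3% of those of at least 500 bp.

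**Figure D3:**
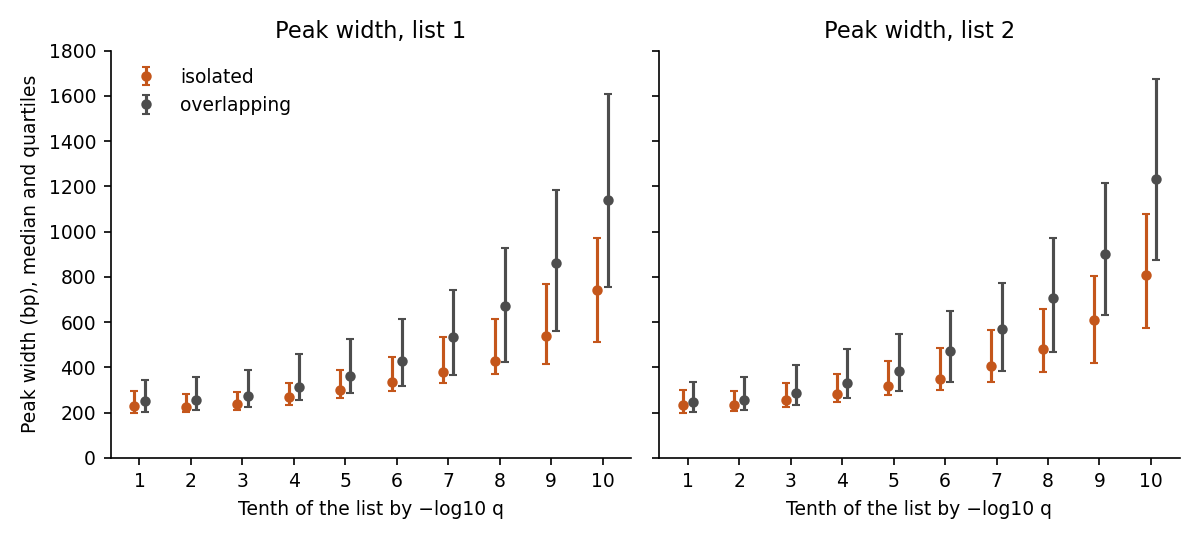
Peak width in bp (y axis) in each of 10 parts of a list by −log10 q (x axis, 1 weakest), list 1 on the left and list 2 on the right. Points are medians and bars reach the quartiles. Isolated peaks (orange) lie below overlapping peaks (grey) in all 10 parts of both panels, most clearly in the strongest ones.

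The rule's limit of 1 kb did not fall at a break in the data. Peaks of list 1 with a gap of 901 to 1000 bp to the other list (513 peaks, just outside the rule) had a median fold of 5.37 and a width of 273 bp, and those at 1001 to 1100 bp (476 peaks, just inside) had 5.37 and 279 bp. In list 2 the values were 5.56 and 300 bp for 793 peaks, and 5.65 and 298 bp for 664 peaks. Most isolated peaks lay well beyond the limit. The median gap was 6214 bp in list 1 (quartiles 3082 and 11910) and 6974 bp in list 2 (3422 and 13536), and 58.6% and 62.7% lay over 5 kb away. Only 6 peaks of list 1 and 23 of list 2 had a gap over 100 kb, the longest being 118471 and 123807 bp.

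Isolated peaks also lay further from other peaks of their own list than overlapping peaks did. The nearest peak of the same list was a median of 6098.5 bp away in list 1 and 4952 bp in list 2, against 2919 and 2649 bp for overlapping peaks. Within 10 kb, 66.7% and 73.7% had such a neighbour, against 78.0% and 81.6% of overlapping peaks, and the isolated share was lower in each of the 10 parts by strength. Yet the neighbour of an isolated peak was itself isolated in 31.8% of cases in list 1 and 43.5% in list 2. For overlapping peaks this was 14.9% and 21.6%. A stretch without peaks of the other list leaves all peaks of a list in it isolated, which ties this figure to the rule. The spacing is not free of the rule either. A peak close to an own-list peak that overlaps the other list can itself fall within 1 kb of that list and count as near. Near peaks lay a median of 665 and 548 bp from the nearest peak of their own list. The longest row of isolated peaks in list 1 had 9 members over 190917 bp of chromosome 9 (91841900 to 92032816), with a median fold of 9.67 and a highest of 27.5. In list 2 it had 11 members over 59989 bp of chromosome 12 (117359269 to 117419257), with a median of 7.41 and a highest of 17.6.

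Along the genome the isolated peaks of list 1 were spread most evenly. The 19 chromosomes held 12.2 ± 0.42 of them per Mb (mean and SD over chromosomes), from 11.4 on chromosome 1 to 12.8 on chromosome 9, a coefficient of variation of 3.41%. Isolated peaks of list 2 ranged from 18.5 per Mb on chromosome 3 to 24.2 on chromosome 11 (21.2 ± 1.51, coefficient 7.15%). Overlapping peaks varied more, from 34.8 on chromosome 3 to 51.3 on chromosome 10 in list 1 (40.4 ± 3.91, coefficient 9.67%). Chromosome 10, the densest in overlapping peaks, had the lowest share of isolated peaks in both lists (17.3% and 27.7%). Isolated peaks were not sparse there, at 12.4 and 23.0 per Mb against the means of 12.2 and 21.2. List 2 had 1.74 ± 0.10 times as many isolated peaks as list 1, from 1.55 times on chromosome 16 to 2.00 times on chromosome 11. With the longer list cut to the length of the shorter by −log10 q, the ratio over all the chromosomes was 1.12 (40267 and 35870 isolated peaks). Chromosomes are not replicates of a condition, and these spreads are descriptions.

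**Figure D4:**
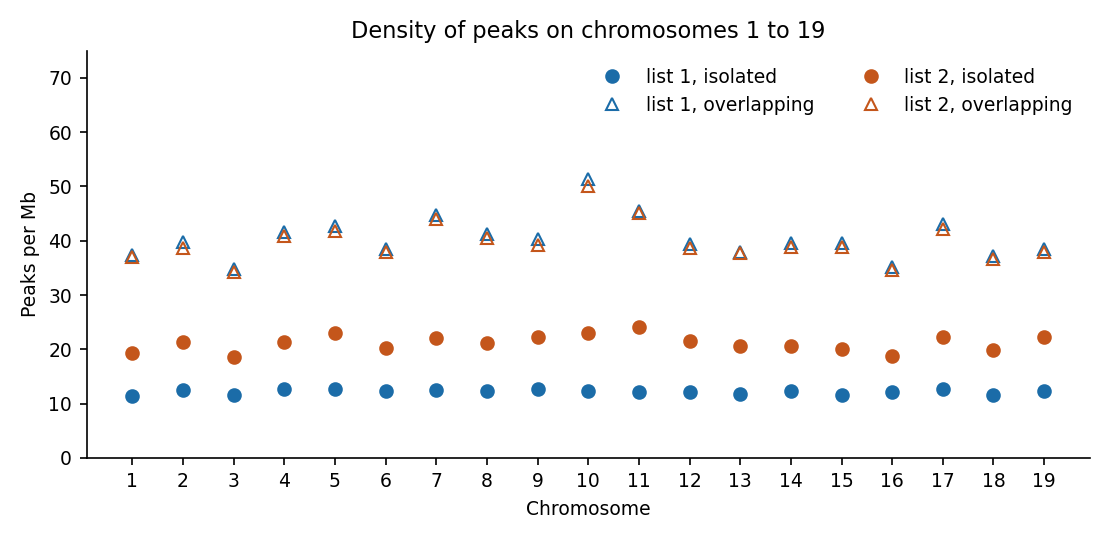
Peaks per Mb (y axis) on chromosomes 1 to 19 (x axis) for isolated peaks (filled circles) and overlapping peaks (open triangles) of list 1 (blue) and list 2 (orange). Isolated peaks of list 1 stay between 11.4 and 12.8 per Mb and those of list 2 between 18.5 and 24.2, while overlapping peaks reach 51.3 on chromosome 10.

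Isolated peaks were also counted in windows of 1 Mb. Across 2394 windows the count of isolated peaks followed that of overlapping peaks with Pearson r = 0.37 in list 1 and 0.58 in list 2 (Spearman rho = 0.35 and 0.58). The isolated counts of the lists followed each other with r = 0.28 (rho = 0.28). The windows share gene density, base composition and the mappable part of the genome, and genomic windows are not independent samples, so no p is given. No window was without an isolated peak of each list. The fullest held 34 of list 1 (chromosome 14, 3000000 to 3999999, beside 19 of list 2) and 53 of list 2 (chromosome 5, 135000000 to 135999999, beside 13 of list 1), against medians of 12 and 21.

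The lists differed in where their isolated peaks lay relative to genes. In list 1, 3.75% of isolated summits were within 1 kb of an end of a protein-coding gene, against 4.89% of overlapping summits, and the isolated share was lower on each of the 19 chromosomes. In list 2 the shares were 4.59% and 4.82%, with the isolated share lower on 11 of 19. Outside protein-coding genes lay 56.9% of isolated and 55.4% of overlapping summits of list 1, but 53.7% and 55.7% of those of list 2. The isolated share outside genes was thus higher on 15 of 19 chromosomes in list 1 and on 1 of 19 in list 2. The rest of protein-coding genes held 39.3% and 39.7% in list 1, and 41.7% and 39.5% in list 2. Weighting the overlapping peaks to the strength of the isolated ones moved their shares little, to 4.79% at gene ends and 54.8% outside in list 1, and to 4.79% and 55.9% in list 2. The difference outside genes (isolated minus overlapping) thus had opposite signs in the lists, 1.55 percentage points in list 1 and -1.96 in list 2. The value of list 1 rested mostly on weak peaks: it was 5.90 in the weakest of the 10 parts, fell to -1.31 in another, and was 0.78 over peaks with −log10 q of at least 5. In list 2 it was -0.50 with the limit at 5 kb in place of 1 kb, and 0.32 at 10 kb.

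Outside protein-coding genes, isolated summits of list 1 lay a median of 69276 bp from the nearest end of such a gene, and those of list 2 63411 bp, against 58411 and 58541 bp for overlapping summits. Long non-coding RNA genes covered 12.5% and 13.3% of these outside summits, against 12.5% of overlapping summits in each list. Pseudogenes covered 1.94% and 1.87%, against 2.32% and 2.33%. The median fold of isolated peaks was 5.51 at gene ends, within genes and outside in list 1, and 5.87 in all 3 in list 2. Over the lowest background, fold moves in whole-fragment steps, so equal medians can hide small differences.

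The strongest isolated peaks stood high in their lists. The 10 with the lowest q in list 1 had folds of 58.4 to 82.0, with 163 to 228 fragments at the summit, and took places 341 to 2404 among all peaks of the list on these chromosomes. Those of list 2 had folds of 45.8 to 72.9, with 199 to 242 fragments, and took places 358 to 1430. None of the 20 lay at a gene end, where 3.75% and 4.59% of all isolated summits of lists 1 and 2 lay. Inside protein-coding genes lay 5 of list 1 and 4 of list 2, and the others were up to 446506 bp from one. The rest of such genes, away from their ends, held 39.3% and 41.7% of all isolated summits, so these counts are near the general shares.

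In list 1 the leading peak was on chromosome 18 (23605262 to 23605849, 588 bp), inside Dtna, the gene of alpha-dystrobrevin, a member of the dystrophin-associated complex of muscle membranes. It held 228 fragments (82.0-fold), and the nearest peak of list 2 was 6818 bp away. The next lay on chromosome 10 (115548757 to 115549835) inside Lgr5, the gene of an R-spondin receptor of the Wnt pathway, with 205 fragments (68.3-fold) and a gap of 9907 bp. Brinp1 (chromosome 4, 68893236 to 68893843) held a peak of 186 fragments, 24107 bp from list 2. Gramd1b held one of 189 fragments, and Cacna1e, which encodes a voltage-gated calcium channel subunit, one of 167. Peaks between genes had Golim4 (29894 bp away), Xkr4 (116807 bp), the hyaluronan synthase gene Has2 (162658 bp), the adhesion gene Nectin3 (446506 bp) and the zinc finger gene Zfp934 (4019 bp) as their nearest protein-coding genes. Of these 10 peaks, the narrowest was 526 bp wide and the widest 1521 bp.

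In list 2 the leading peak was on chromosome 1 (58983859 to 58985712, 1854 bp), inside Stradb, a pseudokinase gene, with 235 fragments (72.9-fold). A peak of list 1 lay 1491 bp away. The next was inside Pde7a, the gene of a cyclic AMP phosphodiesterase (chromosome 3, 19253329 to 19253951), with 230 fragments (71.3-fold) and a gap of 8874 bp. Htr7, a serotonin receptor gene, held a peak of 210 fragments, 9377 bp from list 1, and Alms1 one of 199, 4782 bp away. The other 6 lay between genes, nearest to Pdcd1 (129870 bp), the Src-family kinase gene Fyn (80145 bp), the homeobox gene Hlx (62804 bp), Api5 (42112 bp), the collagen gene Col11a1 (253048 bp) and the adhesion gene Chl1 (178100 bp). The peak nearest to Col11a1 had 242 fragments but 45.8-fold, over a background of 4.30 fragments. Of the 20 strongest isolated peaks, 3 had a gap under 2 kb, all in list 2: those at Stradb, near Pdcd1 (1570 bp) and near Hlx (1538 bp). Such gaps were found in both lists as a whole. With the limit at 2 kb in place of 1 kb, the isolated share went from 20.5% to 17.7% in list 1 and from 30.6% to 27.1% in list 2.

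Of 20665 protein-coding genes on chromosomes 1 to 19, 38.4% had an isolated summit of list 1 within the gene or 5 kb of it, 54.7% had one of list 2 and 66.9% one of either. Both kinds were found at 5438 genes, which is 68.5% of the genes with one of list 1 and 48.1% of those with one of list 2. These shares are the background for every gene list here, and they depend on gene length: 30.3% of the shortest 10% of genes and 99.3% of the longest 10% had an isolated peak of either list. The genes with most were all over 1 Mb long. In list 1 they were Rbfox1 (25 isolated peaks), Cntnap2 (24), Dlg2 (22), Gpc5 (20) and Magi2 (19), and in list 2 Ptprd (41), Macrod2 (39), Cdh13 (37), Ctnna3 (36) and Asic2 (34). Per 100 kb they lay on both sides of the 1.22 and 2.11 found over all the chromosomes. In list 1, Cntnap2 had 1.07, Dlg2 1.11, Magi2 1.27, Gpc5 1.39 and Rbfox1 1.63. In list 2, Ptprd had 1.80, Macrod2 1.94, Ctnna3 2.27, and Asic2 and Cdh13 3.10 each.

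Among 26 regulators of muscle differentiation, 14 had an isolated peak of list 1 (53.8%) and 16 one of list 2 (61.5%). All protein-coding genes of the same lengths gave 42.0% and 55.7%, and no test of the list was made. The paired-box genes Pax7 and Pax3, which mark muscle stem and progenitor cells, held stronger isolated peaks in list 2 than in list 1. At Pax7 a peak of 1045 bp (chromosome 4, 139783356 to 139784400) had 77 fragments and 22.2-fold, and no peak of list 1 lay within 5243 bp. The strongest isolated peak of list 1 at Pax7 had 9 fragments (3.67-fold). At Pax3 the list 2 peak (chromosome 1, 78182235 to 78182963) had 72 fragments (21.9-fold) and a gap of 13085 bp, and the strongest of list 1 had 20 fragments (7.71-fold). Both genes also carry overlapping peaks, 5 in each list at Pax7, and 2 in list 1 and 3 in list 2 at Pax3.

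List 2 held the stronger isolated peak at other regulators too. Here and below, values for a gene in both lists are those of the strongest isolated peak of each list. By the rule these are different peaks at different positions. Eya1, a transcriptional cofactor of muscle progenitors, had 69 fragments in list 2 (21.6-fold) and 21 in list 1 (8.08-fold). Runx1 had 62 fragments in list 2, in a peak only 1063 bp from list 1, and 19 in list 1. Myog, the gene of myogenin, which drives terminal differentiation, had an isolated peak in list 2 alone, at a gene end (chromosome 1, 134290777 to 134291107), with 58 fragments (18.2-fold) and 1979 bp from list 1. Myog also carries 2 overlapping peaks in each list. Mymk, which encodes the fusion protein myomaker, had 44 fragments in list 2 (13.5-fold, 1213 bp from list 1) and 16 in list 1. Mef2d was the reverse, with 24 fragments in list 1 (9.18-fold) and 14 in list 2 (4.28-fold), as was Smyd1, with 17 and 13. Of the 11 regulators with isolated peaks of both lists, the strongest one had more fragments in list 2 at 9 and in list 1 at 2. A further 5 had isolated peaks of list 2 alone, and 3 (Myod1, Cdkn1c and Rbm24) of list 1 alone. The word alone refers to isolated peaks, and these 3 also carry overlapping peaks in both lists. Isolated summits of list 2 held more fragments in general, as given above, and were more numerous at the 26 regulators (37 against 24). Of all protein-coding genes, 11314 had one of list 2, 7943 one of list 1 and 5438 both. The share of all genes with the stronger isolated peak in list 2 was not computed.

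Isolated peaks without an overlapping peak nearby were found at 3 of the 26 regulators (11.5%), against 15.2% of all protein-coding genes. Tcf3, which encodes the E proteins that pair with MyoD, had 2 of each list, the strongest with 17 fragments in list 1 and 26 in list 2. Id1 and Six4 had 1 of list 2 each, with 20 and 11 fragments. Myod1 itself had a single isolated peak within 5 kb, of list 1, with 13 fragments (5.14-fold), 3199 bp outside the gene. Between Myod1 and Otog, list 1 held a further isolated peak of 28 fragments (10.7-fold), 8683 bp from Myod1. List 2 held peaks there of 103 and 33 fragments (chromosome 7, 46320677 to 46321527 and 46321643 to 46322144), 55145 and 54686 bp from Myod1, and 4 weaker ones. On the other side, towards Kcnc1, list 2 held isolated peaks of 63 fragments (18.8-fold) and 17 fragments, 14100 and 16761 bp from Myod1. Rb1 had 19 fragments in list 1 and 24 in list 2, and these peaks were each other's nearest across the lists, 23815 bp apart. The remaining values at regulators with isolated peaks (Smyd1, Mef2a, Cdkn1c, Tcf12, Myf5, Id2 and Rbm24) were between 9 and 31 fragments. Id3, Myf6, Mef2c, Klf5, Cdkn1a and Mymx had no isolated peak of either list within 5 kb.

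Of 42 sarcomere genes, 19 had an isolated peak of list 1 and 26 one of list 2 (45.2% and 61.9%, against 39.6% and 57.3% for genes of these lengths). The titin gene Ttn had 84 fragments in list 2 (26.3-fold, chromosome 2, 76787795 to 76789278) and 15 in list 1 (76898963 to 76899379). The M-band gene Myom1 had 69 fragments in list 2 and 11 in list 1, the nebulin gene Neb 64 and 44, and the myosin heavy chain gene Myh1 61 and 14. The coupling and junction list, for calcium release and nerve-muscle contact, gave 12 and 17 of 25 (48.0% and 68.0%, against 46.2% and 63.0%). Atp2a2, a calcium pump gene of the sarcoplasmic reticulum, had a strong isolated peak in list 1 alone, over a gene end (chromosome 5, 122501491 to 122502341), with 100 fragments (37.1-fold) and no peak of list 2 within 19317 bp. Ryr1, the calcium release channel gene, had 71 fragments in list 2 and 26 in list 1, while the triadin gene Trdn had 47 in list 1 and 34 in list 2. Chrna1, an acetylcholine receptor gene, had 43 fragments in list 1 alone. Overlapping peaks were also present in both lists at Atp2a2 (2 in each) and Chrna1 (1 in each).

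Glycolysis and muscle energy genes gave 7 and 11 of 18 (38.9% and 61.1%, against 32.1% and 49.6%). Here the strongest isolated peaks were those of list 1, at Ppargc1a, the gene of the mitochondrial coactivator PGC-1 alpha (83 fragments, 30.9-fold, chromosome 5, 51870164 to 51871472), and at the phosphofructokinase gene Pfkm (75 fragments, 27.9-fold). The strongest isolated peaks of list 2 at these genes lay at other positions and had 46 and 16 fragments. The myoglobin gene Mb had 41 fragments in list 2 alone, beside 4 overlapping peaks in each list. The glycogen phosphorylase gene Pygm had 30 in list 2 and 12 in list 1.

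Genes of other cell types had such peaks as well. Neuronal genes gave 11 and 14 of 18 (61.1% and 77.8%, against 53.7% and 69.2% for these long genes), led by Rbfox3 (84 fragments in list 2, 36 in list 1), Gad1 (48 in list 2 alone), Grin2b (46 in list 2, 41 in list 1) and Syt1 (42 and 28). Of 20 hepatocyte genes, 12 had an isolated peak of list 2, against 48.2% of genes of these lengths, and none had one of list 1, against 30.4%. They were led by Cyp7a1, the rate-limiting enzyme of bile acid synthesis (87 fragments, 25.1-fold), Cyp2e1 (74), Cps1 (47) and Apoc3 (41). The absence from list 1 was noticed among 7 lists and was not tested. Ubiquitously expressed genes gave 7 and 8 of 23 (30.4% and 34.8%, against 28.5% and 46.7%), led by Reep5 (65 fragments in list 2, 30 in list 1), Gusb (42 and 14), Snrpd3 (40 and 11) and Vcp (38 in list 2 alone). Overlapping peaks were also present in both lists at Gad1, Cyp2e1, Cps1, Apoc3 and Vcp, and in neither at Cyp7a1.

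**Figure D5:**
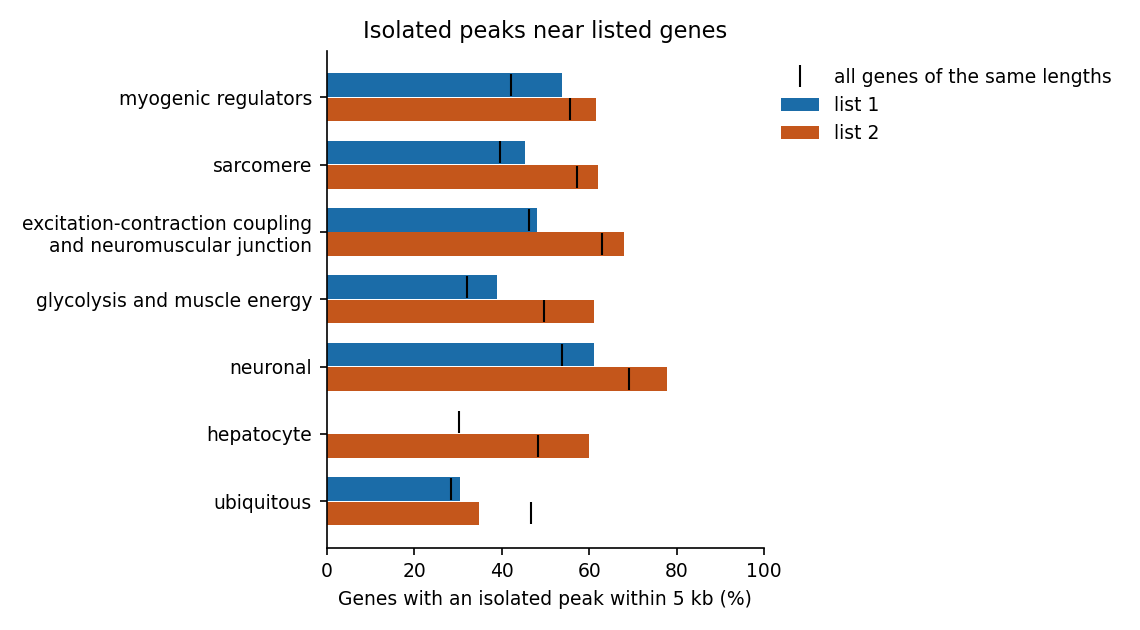
Share of the genes of each list (y axis) with an isolated summit of list 1 (blue bars) or list 2 (orange bars) within the gene or 5 kb of it (x axis, percent). Black ticks give the share of all protein-coding genes weighted to the same lengths. The hepatocyte list has no gene for list 1, against 30.4% for genes of these lengths, and the ubiquitous list lies at 34.8% against 46.7% in list 2.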

How the data were processed

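Both deposited files are narrowPeak tables with no header line. MACS2 2.1.1, Bowtie2 2.3.2, Picard 2.9.2 and mm10 are listed in the submitters' processing notes. Parameters and the libraries behind each call were not given in the sources used here. A list was therefore read as the authors' pooled result for a replicate, without SD or n. The fold enrichment (a ratio), the −log10 p and −log10 q, the integer score (not used) and the summit offset are as deposited by the authors.

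A gap is the number of bases between peaks, and a peak at 1000 bp or less is not isolated. Depth was read from the pileup that gives back the deposited fold and −log10 p under a Poisson tail. The largest error in −log10 p was 0.000307. Printed promoters were taken from all chromosomes but 18. Genes and promoter windows came from RefSeq tables of GRCm38.p6, the assembly behind mm10. Every one of 1641 pairs of windows that overlap on opposite strands matched as reverse complements. Peaks were placed by their summit.

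The members and gene lists were chosen with earlier results of these data known. Named genes are the nearest protein-coding genes to the 10 strongest isolated peaks of each list, all myogenic regulators, the 4 members of each other list with the strongest isolated peak, and the 5 genes with most isolated peaks. A result under this rule is not reported here. Otog and Kcnc1 were named after their values were seen. No test was run: the rule uses both lists, and 2 lists of a single condition allow none over samples. Intervals are 95% exact (Clopper-Pearson). Code was tested on simulated data and recovered 100% of 146628 planted classes and 100% of 20000 pileups. Computing used scipy 1.17.1, pandas 2.3.3 and numpy 2.4.6 under Python 3.11.15, and matplotlib 3.10.9 drew the figures.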

Additional observations from a re-analysis of the deposited data

Results flagged for a closer look

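Isolated peaks also occurred outside chromosomes 1 to 19, in data that the comparisons do not use. Chromosome X held 1493 isolated peaks of list 1 (27.1% of its 5500 peaks) and 1817 of list 2 (31.4% of 5795). Chromosome Y held 1588 of list 1 (35.4% of 4487) and 932 of list 2 (25.3% of 3680), so on Y the order of the lists was the reverse of that on chromosomes 1 to 19, where list 2 had the higher share. This difference was not tested. Unplaced scaffolds held 113 of list 1 (18.9% of 598) and 88 of list 2 (15.9% of 552), of which 8 lay on a scaffold without a peak of list 1. As on the numbered chromosomes, isolated peaks had lower median folds than overlapping ones: 5.51 against 11.4 on X and 6.24 against 11.4 on Y in list 1, and 5.87 against 11.1 and 5.87 against 9.88 in list 2.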

How the results depend on the processing

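Of 122 values recomputed under alternatives, 3 changed sign, 22 moved and 97 did neither; the cause was not tested. A value counted as moved when it shifted by more than the SD between the lists, or a gene count by over 1.5 times. Below that bar, the difference outside genes still went from 1.55 to 0.78 in list 1 with −log10 q of at least 5, and at 5 kb to 3.43 in list 1 and from -1.96 to -0.50 in list 2. At gene ends it went from -0.23 to -0.67 in list 2 at 5 kb. With the limit at 5 kb, 12.0% and 19.2% of the peaks of lists 1 and 2 were isolated, and at 10 kb 6.42% and 11.1%, which follows from the longer gap required. At 10 kb, isolated minus overlapping was -2.21 and -1.07 percentage points at gene ends, -2.41 in the rest of genes (list 1), and 4.62 and 0.32 outside, the last with its sign changed. The rest-of-gene difference of list 1 also changed sign, from -0.41 to 0.35 with −log10 q of at least 5 and to 0.087 with gene ends of 2 kb. Lists of equal size moved the fold ratio to 0.50 and 0.55, and the isolated shares to 24.5% and 27.5%. A reciprocal overlap of 50% gave fold ratios of 0.481 and 0.475 and width ratios of 0.489 and 0.495. With isolated peaks of at least 10-fold, 4956 of 20665 protein-coding genes had one of either list in place of 13819. Among muscle lists this held for 6 of 26 myogenic, 12 of 42 sarcomere, 7 of 25 coupling and junction and 3 of 18 energy genes. In the other lists it held for 6 of 18 neuronal, 6 of 20 hepatocyte and 4 of 23 ubiquitous genes. Shares for genes of the same lengths are not given at this fold, so these counts show no difference between lists. Gene starts in place of both gene ends, chosen after seeing the data, gave -0.92 and -0.34 percentage points. No paired analysis was possible because each list pools the samples of a replicate and no result comes from a test. Leaving out a list was not run, since the rule needs both. Pileups near the lowest callable ones limit the weak isolated peaks.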
